A study of Mus musculus with 59 samples.

Results

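Liver RNA of mice carrying an E2F3b knock-in (3bKI) was compared with liver RNA of E2f3a knock-out mice (3aKO) on expression arrays. The comparison took the 5 3bKI and the 10 3aKO arrays that were normalized together, 15 of the 59 deposited columns, and all 18193 genes read by a probe set that carries exactly 1 gene symbol. The series holds 37 arrays in all, and wild-type (wt) and 3aKO arrays appear in both of its normalizations. The 12 wt arrays of the same normalization entered the fit and are given as a reference level. Every animal was 4 weeks old and of a mixed background of FVB/NT, 129S1/Svlmj and C57BL/6NT. The 3aKO mice lack E2f3a, the 3bKI mice carry the knocked-in E2F3b, and the wt mice carry neither change. The locus of the knock-in, the number of lines and the pooling of animals are not stated in these sources. In published mice of this kind E2F3b was placed at the E2f3a locus, so that both groups would lack E2f3a, but the labels do not state this.

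The E2F proteins control genes of S phase entry. Most of them, though not the atypical E2F7 and E2F8, bind DNA together with a DP partner. The retinoblastoma family of pocket proteins holds most of them in check. The E2f3 locus makes the E2F3a and E2F3b proteins from separate promoters. They differ at the N-terminal end, and E2F3a rises as cells enter the cycle while E2F3b is also present in resting cells. The young liver still grows while its metabolic, circadian and sex-specific programmes mature. The comparison asks how liver expression differs between a knock-in of E2F3b and a loss of E2f3a.

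Start regions of 5 genes are shown to print the letters behind the motif counts given with the E2F and clock genes. Each window holds 300 bases, 250 before and 50 after the start site, from RefSeq for GRCm38.p6. Capitals mark the E2F motif TTTCGCGC or TTTGGCGC on either strand or, in Per3, the D-box TTATGTAA or TTACGTAA on either strand. A match that overlaps a marked one is not marked in full. In Mcm6, TTTCGCGC on the other strand overlaps the first marked match. Pola1, a DNA polymerase subunit, holds the E2F motif and fell, and Chka, a choline kinase, holds it and rose. Mcm6, a helicase subunit, and E2f2 hold it and did not pass the test on their brightest probe sets. Per3, a clock gene, holds 2 D-boxes and fell.
Pola1, chrX:93632106-93632405, minus strand: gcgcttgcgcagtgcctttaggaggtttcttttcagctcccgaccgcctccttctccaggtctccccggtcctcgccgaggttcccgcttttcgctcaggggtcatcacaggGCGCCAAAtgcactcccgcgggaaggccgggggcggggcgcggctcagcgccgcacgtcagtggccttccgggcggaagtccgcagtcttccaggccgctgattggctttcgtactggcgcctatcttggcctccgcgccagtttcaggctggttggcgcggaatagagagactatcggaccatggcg
Mcm6, chr1:128359656-128359955, minus strand: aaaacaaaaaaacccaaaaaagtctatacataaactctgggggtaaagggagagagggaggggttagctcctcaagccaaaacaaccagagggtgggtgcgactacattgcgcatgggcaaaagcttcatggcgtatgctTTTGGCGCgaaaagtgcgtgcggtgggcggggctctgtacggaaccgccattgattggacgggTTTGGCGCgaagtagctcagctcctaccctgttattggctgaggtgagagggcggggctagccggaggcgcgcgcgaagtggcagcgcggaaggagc
E2f2, chr4:136172024-136172323, plus strand: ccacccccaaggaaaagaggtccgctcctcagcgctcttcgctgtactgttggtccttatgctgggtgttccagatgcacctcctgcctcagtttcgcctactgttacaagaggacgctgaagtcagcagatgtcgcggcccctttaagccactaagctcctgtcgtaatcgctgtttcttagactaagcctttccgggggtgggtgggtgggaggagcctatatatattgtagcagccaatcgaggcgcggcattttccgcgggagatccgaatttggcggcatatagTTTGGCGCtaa
Chka, chr19:3851523-3851822, plus strand: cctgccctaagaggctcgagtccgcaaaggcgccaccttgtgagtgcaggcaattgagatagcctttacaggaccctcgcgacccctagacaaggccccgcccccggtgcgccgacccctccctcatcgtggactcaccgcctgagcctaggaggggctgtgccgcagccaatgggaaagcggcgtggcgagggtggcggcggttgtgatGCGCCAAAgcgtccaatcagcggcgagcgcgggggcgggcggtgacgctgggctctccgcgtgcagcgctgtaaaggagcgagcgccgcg
Per3, chr4:151044616-151044915, minus strand: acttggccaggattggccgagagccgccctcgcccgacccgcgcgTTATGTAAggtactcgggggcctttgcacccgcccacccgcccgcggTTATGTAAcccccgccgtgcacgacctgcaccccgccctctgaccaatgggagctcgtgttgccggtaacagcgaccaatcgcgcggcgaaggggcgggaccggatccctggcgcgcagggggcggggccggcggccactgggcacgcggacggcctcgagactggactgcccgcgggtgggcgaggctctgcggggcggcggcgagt

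Values are log2 signals. A change is the 3bKI mean minus the 3aKO mean on the log2 scale with its moderated standard error (SE), and a gene was called at an adjusted p under 0.05 by limma with Benjamini-Hochberg adjustment over all genes. The labels do not say that replicates are separate animals, so the spread behind each p-value may be technical.

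Control measures separated the 3bKI arrays from the others. The hybridization controls, bacterial transcripts added to the labelled RNA, read 11.58 ± 0.29 (SD, n = 5) in 3bKI and 10.17 ± 0.12 (SD, n = 10) in 3aKO. Only wt replicates 1 and 2, at 11.47 and 11.37, lay among the 3bKI arrays, and the other wt arrays ran from 9.83 to 10.47. The poly-A controls, added before labelling, read 13.81 ± 0.04 in 3bKI and 8.75 ± 0.32 in 3aKO, and the highest wt array read 9.70. RNA integrity was read from Gapdh and Actb as the difference of their 3' and 5' probe sets, which was 0.314 ± 0.038 in 3bKI and 0.630 ± 0.067 in 3aKO. Array medians were 5.92 ± 0.03 and 5.86 ± 0.02. All 4 differences passed an exact 2-sided permutation test over 3003 regroupings (adjusted p = 0.00044 for the first 3 and 0.001 for the array median). Hybridization, poly-A and integrity values did not overlap between 3bKI and 3aKO, so their part and that of the genotype cannot be told apart. Xist was high, 12.28 to 12.93, in 3bKI replicates 1 and 3 and in 3aKO replicates 1 to 5, and low, 6.50 to 7.44, in the other 8 arrays.

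**Figure D1:**
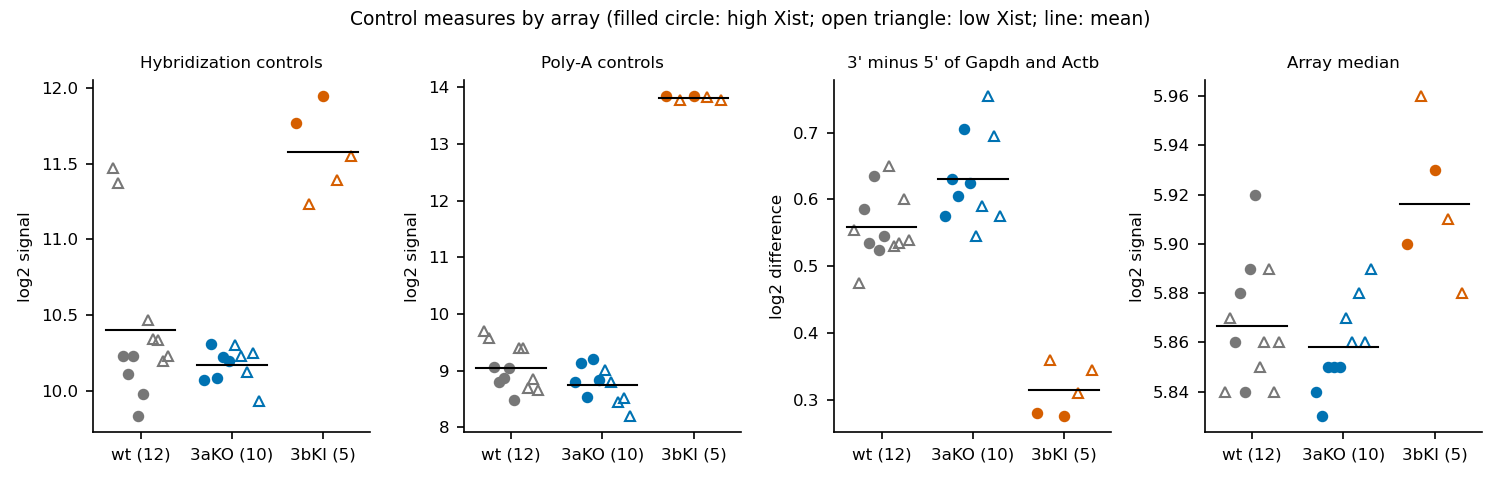
Control measures of each array by genotype: mean log2 signal of the 18 probe sets for added hybridization transcripts and of the 24 for poly-A transcripts, the log2 3' minus 5' difference of Gapdh and Actb, and the array median, on linear axes that do not start at 0. Points are arrays and lines group means. The 5 3bKI arrays stand apart from the 10 3aKO arrays in the first 3 panels, and wt replicates 1 and 2 join them in the hybridization panel alone.

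Hepatocyte markers were at a like high level in both groups, with a mean over 15 measured markers of 13.63 to 13.69 in 3bKI arrays and 13.60 to 13.71 in 3aKO arrays. Across all genes 6218 of 18193 (34.2%) were called, 3002 higher in 3bKI (16.5%) and 3216 lower (17.7%). Between 3bKI and wt 5318 genes (29.2%) were called and between 3aKO and wt 42 (0.231%). Over all probe sets with 1 symbol, 12182 (34.9%) were called. The share depended on signal: above the median signal 50.8% of genes were called, 1851 higher and 2770 lower. At or below it 17.6% were called, 1151 higher and 446 lower. Most changes were small: the median size of a called change was 0.34, and 157 called genes differed by over 2-fold, 64 higher and 93 lower. For 984 genes (5.41%) every 3bKI array lay above every 3aKO array, and for 1227 (6.74%) below. With equal array medians the called genes split into 2006 higher and 4042 lower.

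Of the 157 genes past 2-fold, 149 were called in the same direction against wt, a comparison that shares the 3bKI arrays. For 110 of them both wt replicates with high hybridization controls lay outside the 3bKI range. With the integrity measure as a covariate 116 genes were called, 115 of them among the 6218. With the hybridization level as a block, which wt arrays of both levels link, 1232 were called, and 102 genes were called in all 3 fits. Of the genes described here those 102 include Abca1, D630004K10Rik, Echdc3, Erdr1, H2-Eb1, Igfbp7, Pcyt2, Pola1, Retreg3, Slc40a1, Taok1 and Yae1d1. Each of the other calls between 3bKI and 3aKO described on a brightest probe set was lost in at least 1 of the 2 fits. These fits were not run on dimmer probe sets. Of the 90 called genes described, 74 kept over 50% of their change in both fits and none changed sign in either. Under 50% was left with the integrity covariate for Cd74, Cdkn1a, Ctse, Cyp7a1, Flt4, H2-Ab1 and Rfc1. Under 50% was left with the hybridization block for Anpep, Ccnd1, Cdkn1b, Junb, Jund, Rb1, Rpa1, Stard4 and Ubl7. The change of Flt4, for example, was 0.02 with the covariate, and that of Rb1 -0.06 with the block. Those of Wee1 (-1.57 and -1.51) and Usp2 (-1.46 and -1.93), with the covariate and the block in turn, stayed nearer to their values without either. The integrity measure was at most 0.36 in 3bKI and at least 0.475 in every other array, so its fit reaches across a gap. The block rests on wt replicates 1 and 2, whose poly-A controls read 9.70 and 9.57. Neither fit included the poly-A controls, so the change left in a fit does not measure the part of the genotype.

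Each gene is given by its brightest probe set, and the others did not always follow it. Of the 90 called genes described, 58 have several probe sets, and in 43 of these no other probe set had the opposite sign. In 10 of the other 15 (Abca1, Ctse, E2f8, Ghr, Pck1, Pcyt1a, Per3, Pola1, Rb1 and Rps6) the opposite change was between 0.02 and 0.14 in size and did not pass. In 5 a dimmer probe set was called in the opposite direction, with p-values adjusted over all probe sets by limma. That probe set changed by -0.88 in Yae1d1 (adjusted p = 6.3e-08) and by -0.52 in Cdkn1b (adjusted p = 0.0023). It changed by 0.33 in Taok1, by 0.21 in Tfdp2 and by 0.16 in Foxo1 (adjusted p = 0.028, 0.024 and 0.041). The direction of these 5 genes is therefore that of 1 or more probe sets, not of all. A probe set of the same sign was not always called. Of the genes named above as called in all 3 fits, Abca1, Erdr1, Igfbp7, Pola1 and Slc40a1 had no other probe set called. At least 1 other probe set was called for Retreg3, Taok1 and Yae1d1. The other probe set of Eng was not called, while those of Wee1, Usp2 and Stat2 were. Of the 14 genes described that were not called, 8 have several probe sets, and in 6 of them (Afp, Ccne1, E2f3, Mcm6, Ppargc1a and Rbl1) a dimmer one was called.

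The altered gene was read by 2 probe sets. The brighter read 7.61, 7.63, 7.32, 7.91 and 7.86 in the 3bKI arrays, against 7.44 to 7.88 in 3aKO and 7.63 to 8.18 in wt. The groups overlapped, and the change was -0.02 ± 0.10 (SE; adjusted p = 0.92, limma). The dimmer read 6.12, 5.82, 5.96, 6.35 and 6.12 in 3bKI, against 5.47 to 5.86 in 3aKO and 5.68 to 6.11 in wt. All 3bKI values but that of replicate 2 were above every 3aKO value, and it rose by 0.40 ± 0.08 (adjusted p = 0.00031). The sources do not say which isoform each probe set reads, so neither checks the labels. Among the 20 tested genes nearest to E2f3, 10 on each side, 2 were called, beside 34.2% of all genes. Exoc2, a subunit of the exocyst, fell by 0.35 ± 0.05 (adjusted p = 1.3e-06) and 2610307P16Rik fell by 0.19 ± 0.07 (adjusted p = 0.048). The second call was lost without any single one of 3aKO replicates 1, 2, 5, 6, 8, 9 and 10 and 3bKI replicates 1, 4 and 5.

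Among 13 E2F proteins, DP partners and pocket proteins 1 rose and 3 fell (30.8% called beside 34.2% of all genes). The median change was -0.16 beside 0.02 over all genes. E2f4, a repressor E2F of resting cells, read 8.14, 8.35, 8.34, 8.28 and 8.21 in 3bKI and 7.82 to 8.02 (median 7.90) in 3aKO. The groups did not overlap, and it rose by 0.36 ± 0.06 (adjusted p = 5.5e-05). E2f8, an atypical E2F that represses S phase genes, read 6.83, 7.16, 7.91, 6.74 and 7.20 against 7.60 to 9.01 (median 8.23). All 3bKI arrays but replicate 3 were below the 3aKO range, and E2f8 fell by 1.04 ± 0.21 (adjusted p = 0.00035). Tfdp2, a DP partner, fell by 0.46 ± 0.08 with no overlap (adjusted p = 5.5e-05). Rb1, the retinoblastoma protein, read 6.50, 6.29, 6.24, 6.84 and 6.70 against 6.75 to 7.61, with replicate 4 alone inside the 3aKO range, and fell by 0.53 ± 0.14 (adjusted p = 0.0028). The activators E2f1 (-0.20 ± 0.13, adjusted p = 0.26) and E2f2 (0.29 ± 0.11, adjusted p = 0.051), the atypical E2f7 (-0.06 ± 0.13, adjusted p = 0.77) and the pocket protein Rbl1 (-0.49 ± 0.28, adjusted p = 0.18) did not pass on their brightest probe sets. A dimmer probe set of Rbl1 was called lower (-0.42, adjusted p = 0.027).

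Of 44 measured genes of G1/S and DNA replication, where the classical E2F targets lie, 7 fell and none rose by limma, with 0 higher at an unadjusted p under 0.05. That is 15.9% called beside 34.2% of all genes, and the list's median change was -0.34. Pola1 read 6.84, 6.28, 6.70, 6.69 and 5.98 in 3bKI, against 7.21 to 8.02 (median 7.37) in 3aKO. Every 3bKI array was below every 3aKO array, and Pola1 fell by 0.97 ± 0.13 (adjusted p = 1.9e-06). It was also lower than in wt (-0.76, adjusted p = 4.5e-05). Chaf1b, a chromatin assembly subunit, read 6.07 to 6.22 in 3bKI and 6.52 to 7.79 in 3aKO, and fell by 0.75 ± 0.15 (adjusted p = 0.0002). Rpa1, which coats single-stranded DNA, fell by 0.50 ± 0.12 and Rfc1, the large clamp loader subunit, by 0.37 ± 0.07 (adjusted p = 0.0012 and 0.0002). Mcm6 ranged from 5.98 to 8.94 in 3bKI and from 7.33 to 10.70 in 3aKO, and its change of -1.09 ± 0.49 did not pass (adjusted p = 0.089), while a dimmer probe set of Mcm6 was called lower (-1.44, adjusted p = 0.045). The licensing factor Cdc6 did not pass either (-0.60 ± 0.45, adjusted p = 0.33). One 3aKO array, replicate 1, was the highest of its group for Cdc6, Chaf1b, Rpa1 and Rbl1.

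Of the 37 G1/S genes with a start region in the reference table, 12 (32.4%) hold the E2F motif printed above, beside 1.45% of 14452 genes. The share was 1.87% among genes called higher and 1.65% among those called lower. Counted from the start site, the match of Pola1 lies at -138, the marked ones of Mcm6 at -110 and -47 and that of Chka at -40. Of the 12 G1/S genes with a match, Pola1 was the one called. These matches describe the letters alone.

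G1 regulators moved in both directions, with 2 of 14 higher and 4 lower (42.9% called beside 34.2% of all genes). Cdkn1a, the p21 inhibitor of cyclin-dependent kinases, read 9.39, 7.54, 9.80, 8.01 and 8.51 in 3bKI and 7.12 to 7.87 (median 7.48) in 3aKO. Replicates 1 and 3 were farthest above the 3aKO range and replicate 2 inside it, and Cdkn1a rose by 1.14 ± 0.25 (adjusted p = 0.00056). Cdkn1b, the p27 inhibitor, rose by 0.84 ± 0.15 (adjusted p = 8.1e-05), and wt replicates 1 and 2, at 7.09 and 7.18, lay among its 3bKI values of 6.64 to 7.94. Ccne2, a cyclin of S phase entry, read 3.98 to 4.82 against 4.91 to 6.25 and fell by 1.10 ± 0.24 with no overlap (adjusted p = 0.00072). Ccnd1, cyclin D1, fell by 0.68 ± 0.18 (adjusted p = 0.0046). The probe sets of Ccne1, cyclin E1, differed in their call: the brightest did not pass (-0.27 ± 0.11, adjusted p = 0.059) and the other was called lower (-0.46, adjusted p = 0.0096). The brightest of 5 probe sets of the fetal liver marker Afp did not pass (0.01 ± 0.15, adjusted p = 0.97). Of the dimmer ones, 3 were called lower, by -1.07, -0.89 and -0.43 (adjusted p = 0.00072, 0.00012 and 0.0084). Their means were low, at 4.5, 3.3 and 3.8 in 3bKI and 5.5, 4.2 and 4.3 in 3aKO, under the median signal of 6.87. The remaining dimmer probe set changed by 0.11 and did not pass (adjusted p = 0.35). Of 33 genes of G2/M and mitosis 1 rose and 2 fell (9.09% called beside 34.2% of all genes). Each of these calls was lost when certain single arrays were left out.

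**Figure D2:**
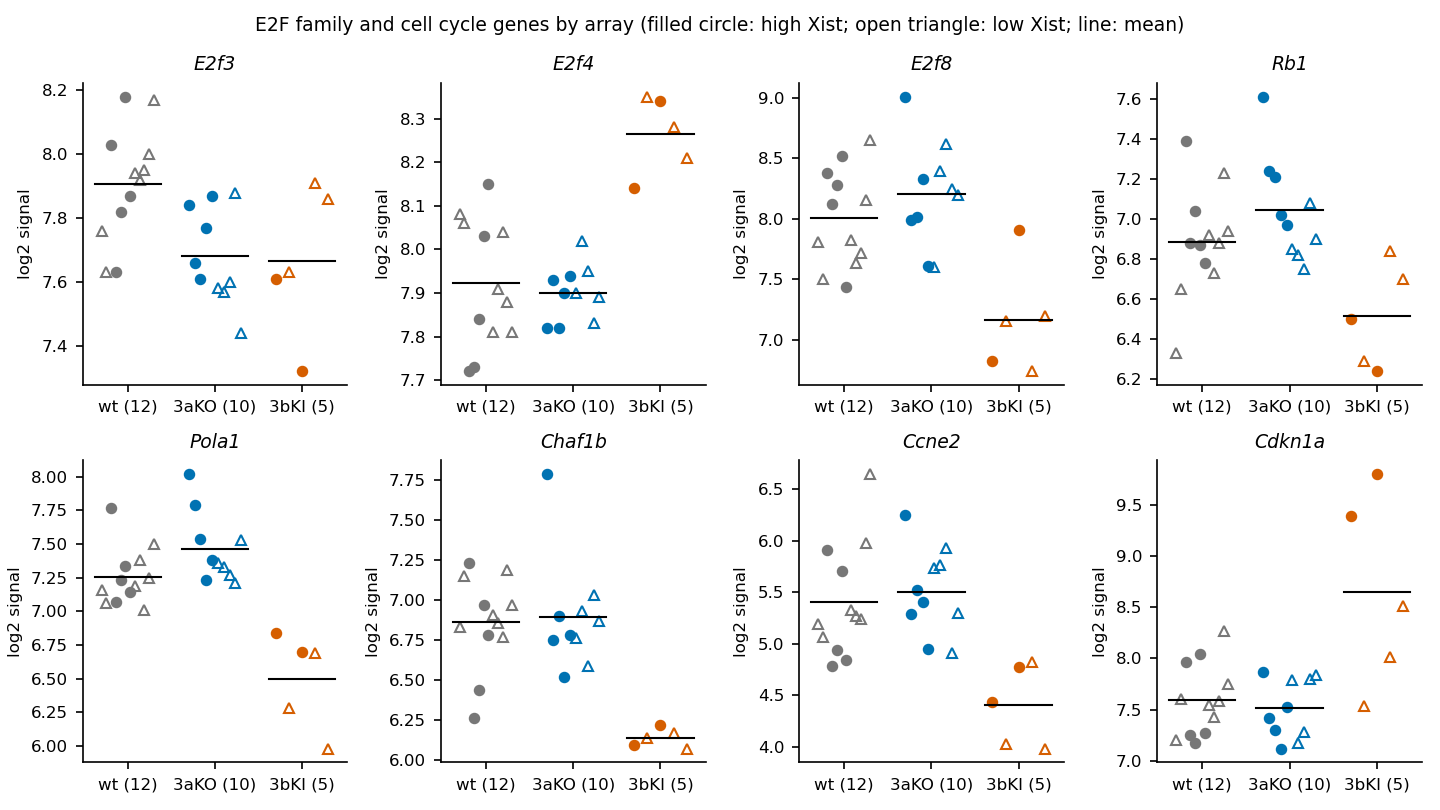
Log2 signal of E2F family and cell cycle genes in each of the 27 arrays, by genotype, on linear axes that do not start at 0. Points are arrays (filled circles, high Xist; open triangles, low Xist) and lines group means. Pola1, Chaf1b and Ccne2 lie lower in 3bKI and E2f4 higher, with no overlap with 3aKO, and the 3bKI and 3aKO means of E2f3 (brighter probe set) differ by 0.02.

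Of 19 p53 target genes, Cdkn1a among them, 4 rose and 7 fell (57.9% called beside 34.2% of all genes), with a median change of -0.13. Bbc3, the pro-apoptotic PUMA, read 8.02, 6.77, 7.69, 7.50 and 8.29 against 6.40 to 6.90 and rose by 0.99 ± 0.17 (adjusted p = 2.5e-05). Zmat3, an RNA-binding protein, fell by 0.36 ± 0.06 with no overlap (adjusted p = 2.1e-05).

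The clock genes held the list with the largest share of calls. In the core loop 4 of 15 genes rose and 6 fell, and of 13 clock output genes 1 rose and 8 fell. These are 66.7% and 69.2% called, beside 34.2% of all genes and 50.8% of genes above the median signal. The median change of the output genes was -1.03. Dbp, a transcription factor driven directly by the clock, read 6.97, 11.68, 6.56, 11.49 and 9.73 in 3bKI and 11.56 to 12.50 (median 12.25) in 3aKO. Replicates 1 and 3 were lowest, replicate 5 intermediate, and replicate 2 alone inside the 3aKO range, and Dbp fell by 2.90 ± 0.56 (adjusted p = 0.00014). Per3, a period gene of the negative limb, followed the same pattern with 6.03, 8.59, 6.06, 8.91 and 7.49 against 9.12 to 9.86. Its groups did not overlap, and it fell by 1.99 ± 0.30 (adjusted p = 6.5e-06). Per2 fell by 1.39 ± 0.22 and Nr1d2, the repressor REV-ERB beta, by 1.33 ± 0.23, neither with overlap (adjusted p = 1.2e-05 and 4.6e-05). Tef, a relative of Dbp, read 9.64, 11.15, 8.94, 11.08 and 10.36 against a narrow 11.38 to 11.67 and fell by 1.21 ± 0.20 (adjusted p = 2.5e-05).

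Wee1, a mitotic kinase under clock control, read 7.15, 8.48, 7.86, 8.89 and 7.87 against 9.26 to 10.03. Every 3bKI array lay below the 3aKO range, and Wee1 fell by 1.61 ± 0.18 (adjusted p = 5.2e-08). Usp2, a deubiquitinase, fell by 1.93 ± 0.25 with no overlap (adjusted p = 5.5e-07), and Noct, nocturnin, by 2.24 ± 0.42 with overlap (adjusted p = 0.0001). The other probe set of Usp2 changed by -3.1 (adjusted p = 3.2e-07, limma), while the other probe sets of Per2, Nr1d2 and Tef did not pass. Arntl and Nfil3 were among the 4 core clock genes that rose. Arntl (BMAL1), the positive core factor, read 7.58, 7.01, 7.27, 6.70 and 6.97 against 6.50 to 6.92 and rose by 0.48 ± 0.10 (adjusted p = 0.00043). The other probe set of Arntl rose by 2.03 (adjusted p = 4e-05, limma). Nfil3, a repressor at D-boxes, read 9.32, 7.01, 8.96, 8.07 and 8.55 against 7.08 to 7.73 and rose by 1.00 ± 0.24 (adjusted p = 0.0019). In both genes replicates 1 and 3 were the highest. The wt replicates 1 and 2 read 9.21 and 9.06 for Per3 and 9.64 and 9.64 for Wee1, above every 3bKI array. The D-boxes of Per3 lie at -205 and -158 from the start site, and 1.02% of all genes hold 1 or more. Per3 was the 1 gene with a D-box of 13 core clock genes that have a start region, and 0 of 12 output genes hold one. The sources used here do not give the hour at which livers were taken, so its part and that of the genotype cannot be told apart.

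**Figure D3:**
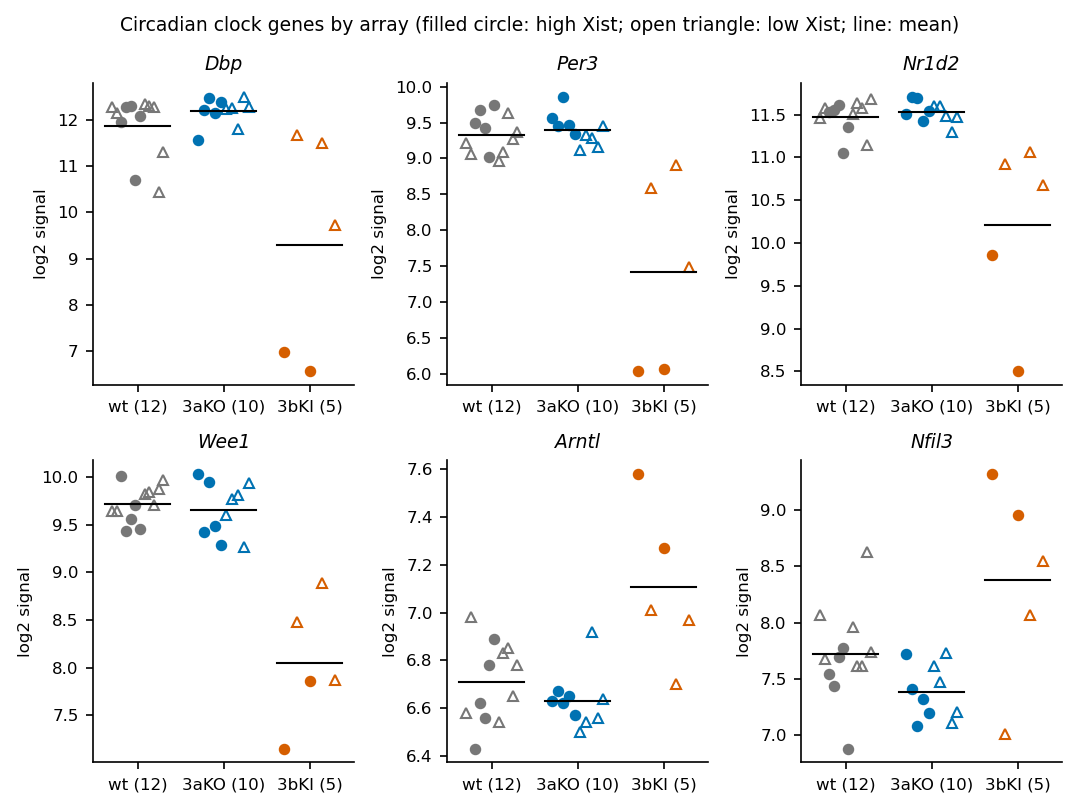
Log2 signal of clock genes in each of the 27 arrays by genotype, on linear axes that do not start at 0. Points are arrays (filled circles, high Xist; open triangles, low Xist) and lines group means. Dbp, Per3 and Nr1d2 are lowest and Arntl and Nfil3 highest in the 2 high-Xist 3bKI arrays.

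Sex-biased genes were read with the Xist level in view, since 2 3bKI arrays had high and 3 low Xist. Without that, 2 of 15 sex-dimorphic liver genes fell and none rose by limma, with 0 higher at an unadjusted p under 0.05. The share called was 13.3%, beside 34.2% of all genes. Cyp4a12a, a male-biased fatty acid hydroxylase, read 6.07 and 6.27 in the high-Xist 3bKI arrays and 12.95 to 13.10 in the low-Xist ones. In 3aKO the levels were 9.00 to 10.22 with high and 12.05 to 12.98 with low Xist, and in wt 8.44 to 9.82 and 11.96 to 12.93. The high-Xist 3bKI arrays thus lay below every other array. Elovl3, a male-biased fatty acid elongase, read 8.47 and 7.09 with high and 11.40 to 12.48 with low Xist in 3bKI, against 8.60 to 9.06 and 8.35 to 10.33 in 3aKO. Its low-Xist 3bKI arrays lay above every 3aKO array. Cyp2b9, a female-biased P450, read 12.26 and 11.70 with high and 7.15 to 8.50 with low Xist in 3bKI, against 11.65 to 12.22 and 10.04 to 10.34 in 3aKO. Hao2, a female-biased peroxisomal oxidase, read 11.61 and 12.57 and 7.34 to 9.05 in 3bKI, against 12.03 to 12.29 and 10.88 to 11.63 in 3aKO. For both genes the low-Xist 3bKI arrays were below every 3aKO array.

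These patterns were compared by the slope of each gene on a sex index (Xist minus the mean of the Y-linked genes, scaled from 0 to 1) in each genotype, a fit added after the values were seen. The slope differed between 3bKI and 3aKO for 134 genes (0.737%), 55 with a higher and 79 with a lower slope in 3bKI. Between 3aKO and wt it differed for no gene by limma (0%), with 1581 genes at an unadjusted p under 0.05 beside 2422 for 3bKI against 3aKO. The slope difference was -4.69 ± 0.50 for Cyp4a12a (adjusted p = 1.2e-05) and -3.88 ± 0.75 for Elovl3 (adjusted p = 0.012), the latter lost without 3bKI replicate 3. It was 2.69 ± 0.47 for Cyp2b9 and 3.51 ± 0.44 for Hao2 (adjusted p = 0.0045 and 7.8e-05). The female-biased sulfotransferase Sult3a1 did not pass (2.91 ± 1.21, adjusted p = 0.28), with 3aKO levels already far apart at 12.57 to 13.12 and 4.72 to 9.19.

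Clock genes were among the 134. The slope difference was -4.61 ± 0.72 for Dbp, -2.87 ± 0.35 for Per3 and -1.76 ± 0.25 for Tef (adjusted p = 0.0012, 6.8e-05 and 0.00035). Nr1d2 differed by -2.01 ± 0.31 (adjusted p = 0.0012), and by -2.79 to -1.25 when single arrays were left out. Chka (1.78 ± 0.33, adjusted p = 0.0076) and E2f2 (0.95 ± 0.19, adjusted p = 0.016) also passed, and both were lost without 3bKI replicate 3. Cdkn1a (1.86 ± 0.41, adjusted p = 0.029) was lost without that array or without 3aKO replicate 3, 4 or 10. E2f2 read 7.12 and 7.51 in the high-Xist and 6.45 to 6.85 in the low-Xist 3bKI arrays. The 2 high-Xist 3bKI arrays also had the highest hybridization controls of that group, 11.77 and 11.95 beside 11.23 to 11.55. Their 3' minus 5' differences were the smallest, 0.280 and 0.275 beside 0.310 to 0.360. With the integrity covariate 108 slope differences were called, all among the 134, and with the hybridization block 141, of which 133 were among them. That block puts all 3bKI arrays at 1 level. The part of these measures, and of the hour of sampling, which is not given, cannot be told apart. The count of 134 rests on few arrays: it was 430 without 3bKI replicate 1, 200 without replicate 2 and 42 without replicate 3.

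Within 1 Xist level, 3572 genes (19.6%) were called among low-Xist arrays (3 against 5) and 4812 (26.4%) among high-Xist arrays (2 against 5). Of these, 2279 were called in the same direction at both levels and 14 in opposite directions. Dbp changed by -1.25 (adjusted p = 0.046) at low and by -5.39 (adjusted p = 1.9e-06) at high Xist.

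**Figure D4:**
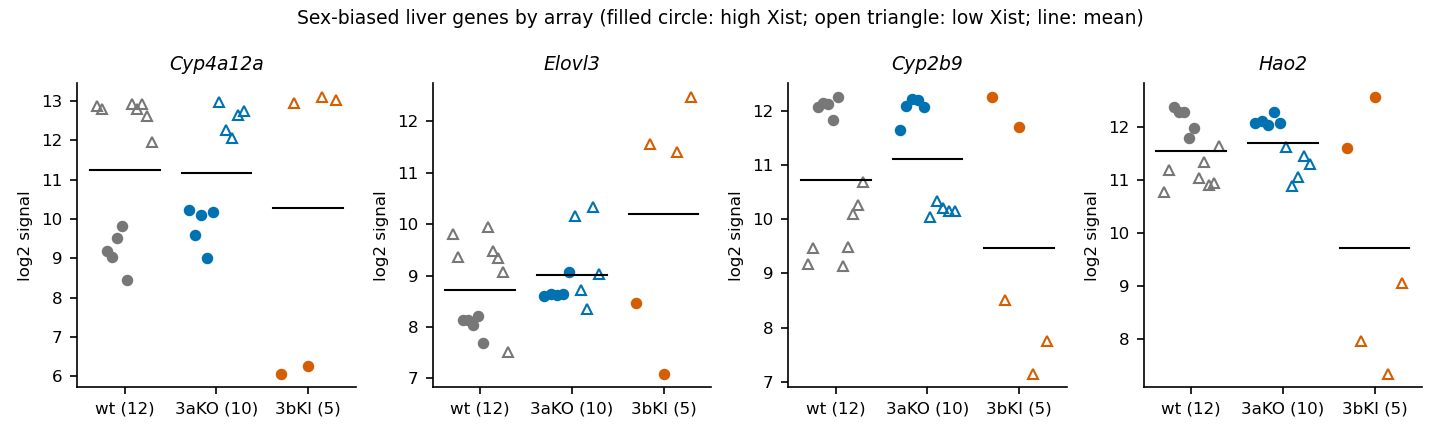
Log2 signal of 4 sex-biased liver genes in each of the 27 arrays by genotype, on linear axes that do not start at 0. Points are arrays (filled circles, high Xist; open triangles, low Xist) and lines group means. The filled and open symbols lie farther apart in 3bKI than in 3aKO for all 4 genes.

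Of 29 target genes of PPAR alpha, the receptor that switches on fatty acid oxidation in fasting, 12 fell, 1 rose and 16 did not pass. That is 44.8% called, beside 34.2% of all genes and 50.8% of genes above the median signal. The list's median change was -0.24. Cyp4a14, a fatty acid hydroxylase, read 8.77, 7.20, 8.96, 10.42 and 7.58 in 3bKI and 8.12 to 12.17 (median 10.97) in 3aKO. The groups overlapped, and Cyp4a14 fell by 2.34 ± 0.52 (adjusted p = 0.00076). Acot3, a peroxisomal thioesterase, fell by 1.85 ± 0.39 and Vnn1, a pantetheinase, by 1.53 ± 0.26 (adjusted p = 0.00038 and 3.8e-05). Cpt1a, the gate of mitochondrial fatty acid entry, read 11.72 to 12.32 against 12.38 to 12.73 and fell by 0.50 ± 0.08 with no overlap (adjusted p = 1.9e-05). The gene that rose was Pdk4, a kinase that blocks pyruvate oxidation, with 7.60, 5.23, 6.89, 5.95 and 7.94 against 4.73 to 6.16 (1.44 ± 0.30, adjusted p = 0.00031).

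Of 19 fatty acid synthesis genes 3 rose and 7 fell (52.6% called beside 34.2% of all genes). Thrsp, a lipogenic regulator, read 12.05, 13.75, 13.02, 13.04 and 13.25 against 13.91 to 14.37 and fell by 1.15 ± 0.15 with no overlap (adjusted p = 6.1e-07). Mlxipl, the carbohydrate-sensing factor ChREBP, read 11.55 to 12.15 against 10.21 to 10.82 and rose by 1.16 ± 0.15 (adjusted p = 7.6e-07). Fads2, a desaturase, fell by 0.58 ± 0.12 (adjusted p = 0.00039). Of 20 cholesterol synthesis and uptake genes 2 rose and 2 fell (20% called beside 34.2% of all genes). The sterol carrier Stard4 fell by 0.78 ± 0.10 and the regulator Srebf2 rose by 0.43 ± 0.09 (adjusted p = 6.3e-07 and 0.00045).

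In bile acid synthesis and transport 3 of 22 genes rose and 8 fell (50% called beside 34.2% of all genes). Cyp7a1, the rate-limiting enzyme of the classical pathway, read 9.05, 11.46, 10.85, 10.18 and 9.24 in 3bKI and 11.00 to 12.82 (median 11.96) in 3aKO. All 3bKI arrays but replicate 2 lay below the 3aKO range, and Cyp7a1 fell by 1.81 ± 0.34 (adjusted p = 0.0001). Hsd3b7, the next step, rose by 0.66 ± 0.10 and Cyp27a1, of the alternative pathway, by 0.43 ± 0.07 (adjusted p = 5e-06 and 1.1e-05). The sinusoidal transporters Slco1a4 and Slco1a1 fell by 0.88 ± 0.13 and 0.46 ± 0.07, neither with overlap (adjusted p = 6.8e-06 and 1.7e-05).

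Of 19 lipoprotein genes 6 rose and 3 fell (47.4% called beside 34.2% of all genes). Apob, the protein backbone of very low density lipoprotein, read 11.79, 12.75, 11.60, 12.10 and 11.87 in 3bKI and 12.80 to 13.32 (median 13.15) in 3aKO. It fell by 1.09 ± 0.11 with no overlap (adjusted p = 1.4e-08), and its second probe set fell by 0.93 (adjusted p = 0.00038). Relative to wt, 3aKO was lower on the first probe set (-0.88, adjusted p = 1.1e-06, with a wt mean of 13.99) and 0.45 higher on the second. Abca1, the cholesterol exporter, fell by 0.56 ± 0.06 and Pltp, the phospholipid transfer protein, rose by 0.99 ± 0.16, neither with overlap (adjusted p = 7.7e-09 and 2.4e-05).

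In phosphatidylcholine synthesis 4 of 17 genes rose and 5 fell (52.9% called beside 34.2% of all genes). Both choline kinases rose. Chka read 10.17, 8.37, 10.08, 8.44 and 9.30 against 7.21 to 7.89, a rise of 1.60 ± 0.22 with no overlap (adjusted p = 1.8e-06), and Chkb rose by 0.85 ± 0.10 (adjusted p = 7.6e-08). Pcyt2, of the ethanolamine branch, rose by 0.62 ± 0.07, while Pcyt1a, the rate-setting enzyme of the choline branch, fell by 0.53 ± 0.07 (adjusted p = 1.8e-07 and 1.1e-06). Gdpd3, a lysophospholipase D, ranged from 4.82 to 10.38 in 3bKI and from 9.83 to 11.14 in 3aKO, and fell by 2.58 ± 0.71 (adjusted p = 0.0051).

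Of 20 genes of gluconeogenesis and the fasting response 3 rose and 6 fell (45% called beside 34.2% of all genes). Pck1, the committed step, read 12.36 to 13.13 against 13.17 to 13.51 and fell by 0.50 ± 0.09 (adjusted p = 7.6e-05). The insulin-restrained factor Foxo1 fell by 0.66 ± 0.11 and Gys2, the liver glycogen synthase, by 0.93 ± 0.18 (adjusted p = 2.6e-05 and 0.00013). Among 18 metallothionein and glucocorticoid response genes 3 rose and 8 fell (61.1% called), with a median of -0.42. The receptor Nr3c1 fell by 0.40 ± 0.07 and its target Tsc22d3 (GILZ) by 0.90 ± 0.17 (adjusted p = 3.2e-05 and 0.00011).

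Of 31 P450 genes of families 1 to 3, 10 fell and 2 rose (38.7% called beside 34.2% of all genes). Of 31 conjugation enzymes 10 fell and 7 rose (54.8% called). Cyp2c50 fell by 0.61 ± 0.11 with no overlap and Cyp2c38 by 0.86 ± 0.18 (adjusted p = 4.7e-05 and 0.00033). The slope of Cyp2c50 on the sex index differed too (0.71 ± 0.17, adjusted p = 0.047). Tpmt, thiopurine methyltransferase, fell by 0.53 ± 0.08 (adjusted p = 4.9e-06).

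Antigen presentation genes were read as 2 lists. Of 11 MHC class II genes 5 rose and none fell by limma, and of 12 class I genes 3 rose and none fell. That is 45.5% of class II and 25% of class I genes, beside 16.5% of all genes called higher. At an unadjusted p under 0.05, 0 class II and 0 class I genes were lower. H2-Eb1, a class II beta chain, read 8.68, 7.96, 9.25, 8.67 and 8.34 in 3bKI and 6.53 to 7.21 (median 6.76) in 3aKO. The groups did not overlap, H2-Eb1 rose by 1.82 ± 0.13 (adjusted p = 3.7e-11), and wt replicates 1 and 2, at 6.51 and 6.81, lay at the 3aKO level. Cd74, the invariant chain, read 10.51 to 11.21 against 8.93 to 10.66 and rose by 1.24 ± 0.23 (adjusted p = 7.9e-05). H2-Ab1 rose by 0.76 ± 0.27 (adjusted p = 0.027), a call lost without 3bKI replicate 1 or 3. Inbred mouse strains differ in their H2 haplotypes, and the labels do not give the share of each strain in an animal.

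Of 32 interferon-stimulated genes 8 rose and 1 fell (28.1% called beside 34.2% of all genes). Stat2, a subunit of the interferon-activated complex, read 8.33 to 8.62 against 7.18 to 7.54 and rose by 1.14 ± 0.10 with no overlap (adjusted p = 1e-09). Mx2, an antiviral GTPase, rose by 0.43 ± 0.08 (adjusted p = 5.3e-05). Acute phase genes split, with 6 of 28 higher and 3 lower (32.1% called). Saa1, a serum amyloid, read 10.66, 11.51, 10.66, 13.56 and 12.04 in 3bKI and 9.77 to 11.19 in 3aKO. Replicate 4 was the highest, and the rise was 1.38 ± 0.34 (adjusted p = 0.0022), or 0.91 without replicate 4. Il6ra, the interleukin 6 receptor subunit, fell by 1.38 ± 0.20 with no overlap (adjusted p = 4.9e-06).

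Of 24 immediate early genes, which respond to handling of tissue as well as to growth signals, 6 rose and none fell by limma. At an unadjusted p under 0.05, 1 was lower. The share called was 25%, beside 34.2% of all genes called in either direction and 16.5% called higher. Junb rose by 1.13 ± 0.25 and Jund by 0.48 ± 0.09 (adjusted p = 0.00059 and 0.00017). The wt replicates 1 and 2 read 8.01 and 7.89 for Junb, inside the 3bKI range of 7.52 to 8.73.

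Markers of other liver cells were read next. In bulk tissue fewer cells of a type and less RNA per cell cannot be told apart. Of 20 endothelial markers 10 rose and 1 fell (55% called beside 34.2% of all genes), with a median change of 0.28. The list mean was 8.35 to 8.68 in 3bKI arrays and 7.74 to 8.63 in 3aKO arrays. Eng, a TGF beta co-receptor, read 9.81 to 9.99 against 8.86 to 9.41 and rose by 0.61 ± 0.08 (adjusted p = 1e-06). Dnase1l3, a sinusoidal nuclease, rose by 0.87 ± 0.13 and Flt4, a VEGF receptor, by 0.55 ± 0.09, neither with overlap (adjusted p = 7.7e-06 and 2.6e-05). Of 18 macrophage markers 1 rose and 3 fell (22.2% called), and the list mean was 8.87 to 9.55 in 3bKI and 9.09 to 9.93 in 3aKO. The scavenger receptor Cd163 fell by 0.96 ± 0.27 (adjusted p = 0.0061). Of 18 stellate cell and fibroblast markers 3 rose and 4 fell (38.9% called). The changes in this list ran from -0.54 to 0.95, with a median of 0.004. The largest rise was that of Ngfr, a neurotrophin receptor, at 0.95 ± 0.10 with no overlap (adjusted p = 1.3e-08). B cell markers rose for 2 of 10 (20%), T and NK markers for 2 of 16 (12.5%) and neutrophil markers for 1 of 11 (9.09%), beside 16.5% of all genes called higher. No dendritic cell marker of 11 was called by limma, at an unadjusted p under 0.05 in 2 higher and 1 lower. The part of cell composition in the MHC class II values was not tested.

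Of 20 heat shock chaperones 7 fell and 1 rose (40% called beside 34.2% of all genes). Hspd1, a mitochondrial chaperonin, was at -0.24 ± 0.05 (adjusted p = 0.00015). Genes of the unfolded protein response were called at 27.3% and those of oxidative phosphorylation at 31.8%, beside 34.2% of all genes and 50.8% of genes above the median signal of 6.87. The means of these lists in 3bKI arrays, 10.33 to 10.84 and 12.23 to 12.32, lay above that median. Of 31 ribosomal protein genes 13 fell and 3 rose (51.6% called), and Rps6 fell by 0.60 ± 0.07 (adjusted p = 8.4e-08). Of 18 iron genes 6 rose and 3 fell (50% called). Among them Slc40a1, the exporter ferroportin, fell by 0.41 ± 0.05 (adjusted p = 1.2e-07). Ghr, the growth hormone receptor, read 12.58 to 12.92 against 13.12 to 13.47 and fell by 0.54 ± 0.06 (adjusted p = 7.1e-08). The nuclear RNA Neat1 rose by 1.35 ± 0.35 (adjusted p = 0.0033).

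**Figure D5:**
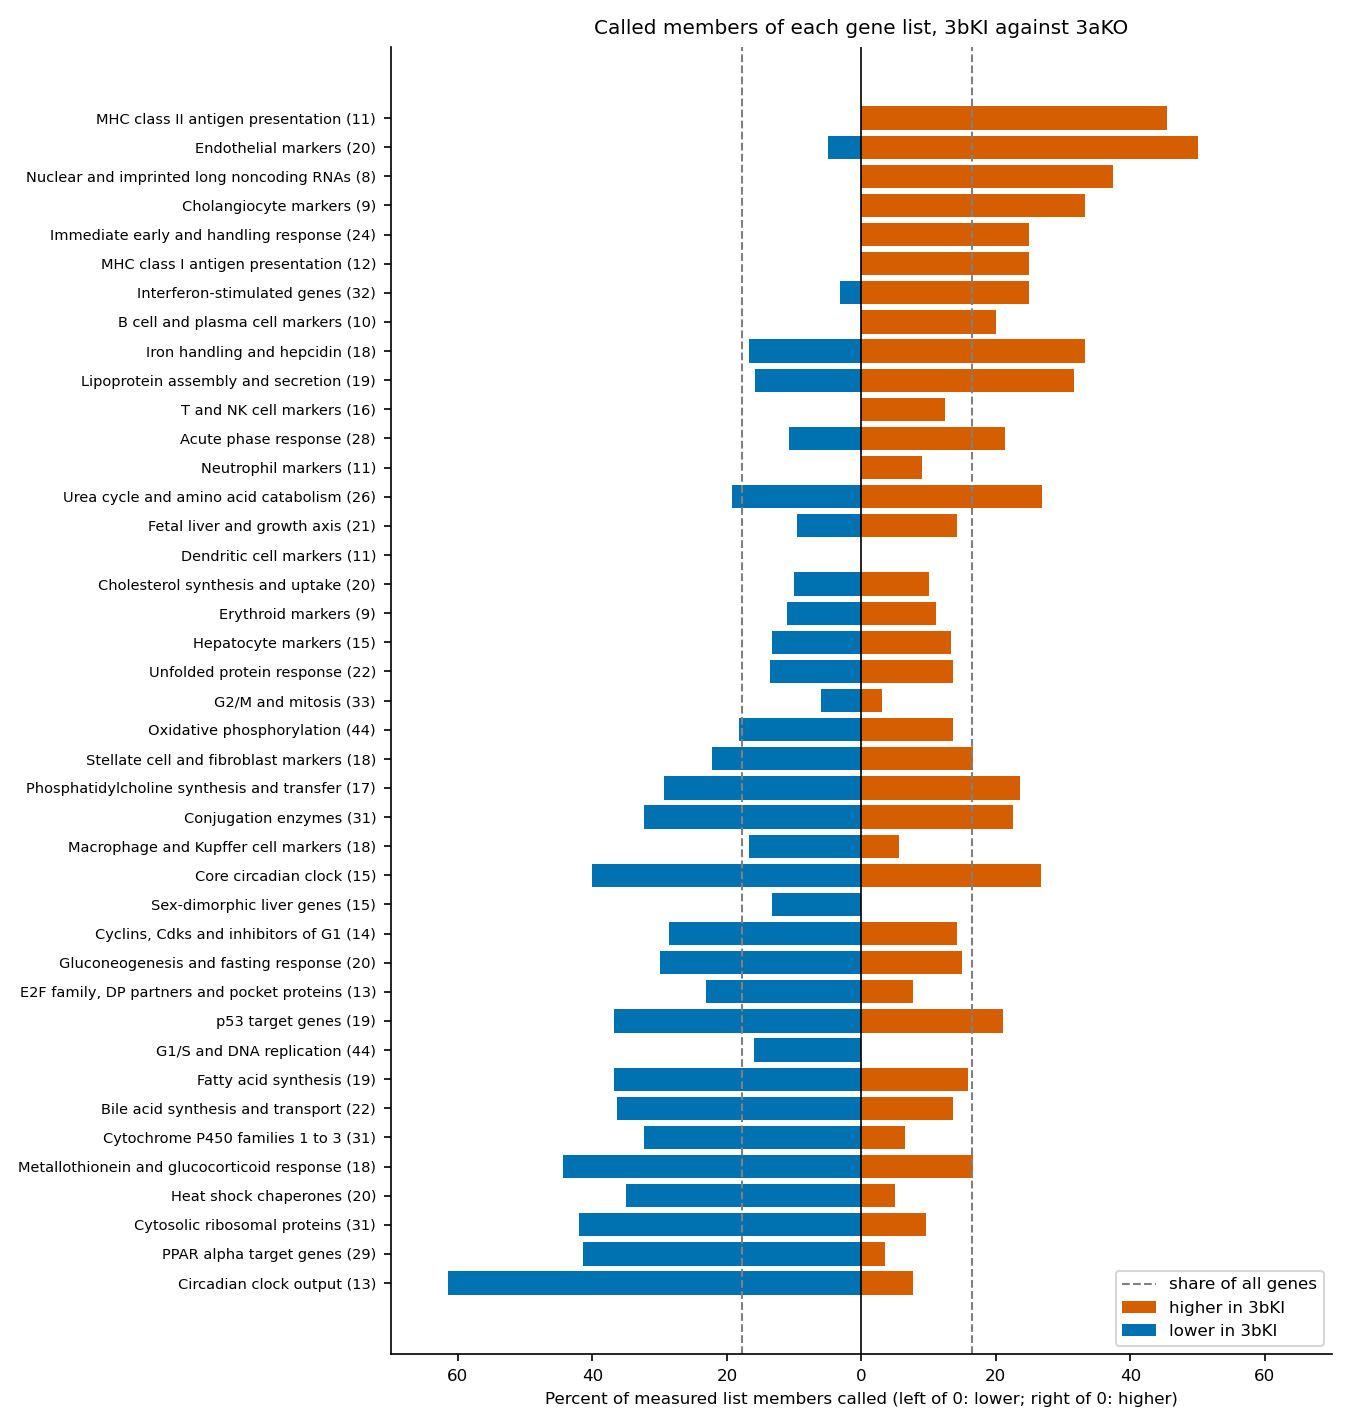
Percent of the measured members of each gene list (number measured in brackets) that were called higher (right of 0) or lower (left of 0) in 3bKI against 3aKO. Dashed lines mark the share of all genes, 16.5% higher and 17.7% lower. Clock output genes reach farthest to the left and endothelial markers farthest to the right.

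Outside the lists, Erdr1 rose most among genes above the median signal, with 12.20, 12.73, 11.83, 12.91 and 12.09 in 3bKI and 9.13 to 10.22 in 3aKO. The groups lay far apart, at 2.72 ± 0.22 (adjusted p = 5.7e-10). Ctse, the protease cathepsin E, read 10.48 to 12.19 against 8.19 to 9.96, a rise of 1.88 ± 0.27 (adjusted p = 3.2e-06). Echdc3, of the enoyl-CoA hydratase family, read 9.79 to 11.08 against 8.58 to 9.25, a rise of 1.70 ± 0.17 (adjusted p = 1.4e-08). Yae1d1 rose by 1.51 ± 0.13 (adjusted p = 1.7e-09), and wt replicates 1 and 2 lay in its 3aKO range at 7.37 and 7.21. Anpep, aminopeptidase N, rose by 1.51 ± 0.20 (adjusted p = 6.9e-07), but wt replicates 1 and 2 read 9.46 and 9.27, inside or just under its 3bKI range of 9.35 to 9.82. Ubl7 rose by 1.45 ± 0.15 (adjusted p = 3.2e-08), with those wt arrays at 8.71 and 8.77, between 3aKO at 7.70 to 8.07 and 3bKI at 9.03 to 9.55.

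Among the genes that fell most, Akr1e1, an aldo-keto reductase, read 9.78, 7.45, 7.57, 7.97 and 5.44 in 3bKI against 9.64 to 9.84 in 3aKO. Replicate 1 lay inside the narrow 3aKO range and the other 4 far below it, at -2.08 ± 0.32 on average (adjusted p = 7.7e-06). Tmem267 read 8.33, 4.42, 8.28, 6.90 and 7.90 against 8.47 to 9.04, and its change of -1.63 ± 0.36 (adjusted p = 0.00063) was -0.94 without the very low replicate 2. D630004K10Rik read 7.37 to 8.22 against 8.86 to 9.74 and fell by 1.59 ± 0.14 (adjusted p = 1.7e-09). The smallest p-value of all genes was that of Retreg3, an endoplasmic reticulum turnover receptor, with 7.67, 7.82, 7.43, 7.73 and 7.93 against 8.97 to 9.28 (-1.47 ± 0.07, adjusted p = 2e-15). Taok1, a kinase, fell by 1.19 ± 0.08 and Igfbp7, a secreted binding protein, rose by 1.02 ± 0.07 (adjusted p = 2.3e-11 and 3.7e-11).

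Gene length differed between the directions. The median span in RefSeq was 37.8 kb for genes called lower, 14.3 kb for those called higher and 18.4 kb for those not called. The 3' minus 5' signal also separated the groups, and its part in this was not tested.

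Of the 42 genes called between 3aKO and wt, 30 were higher and 12 lower in 3aKO. Of the 30, 16 were lower and 1 higher in 3bKI than in 3aKO, of the 12, 4 were higher and 3 lower, and 18 of the 42 were not called. Both comparisons share the 3aKO arrays, so these are values side by side. Mme, the membrane protease neprilysin, read 7.95 ± 0.47 (SD, n = 12) in wt, 9.02 ± 0.49 (SD, n = 10) in 3aKO and 7.01 ± 0.79 (SD, n = 5) in 3bKI. Its 3bKI values of 7.97, 5.95, 7.32, 7.29 and 6.51 were all below the 3aKO range of 8.36 to 9.69 (-2.01 ± 0.27, adjusted p = 1.4e-06). Ppargc1a, a coactivator of mitochondrial and gluconeogenic genes, averaged 7.32 in wt, 8.43 in 3aKO and 7.89 in 3bKI on its brightest probe set, where the change from 3aKO did not pass (-0.53 ± 0.21, adjusted p = 0.052). All 4 dimmer probe sets of Ppargc1a were called lower, by -1.13, -0.91, -0.75 and -0.60 (adjusted p = 7.4e-06, 4e-05, 0.00037 and 0.0064). Apob averaged 13.99, 13.12 and 12.02.

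The 3bKI arrays varied more among themselves, with a median SD over genes of 0.168 beside 0.138 in 3aKO and 0.143 in wt. Pairwise correlations ran from 0.984 to 0.994 in 3bKI and from 0.990 to 0.997 in 3aKO.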

How the data were processed

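RNA of 4-week-old mouse liver, 5 µg of total RNA per sample by the labels, was read on Affymetrix expression arrays. The authors deposited normalized log2 values per probe set in 2 normalizations, and the second, with 27 arrays, was used here. The sources used here give neither the method of normalization nor the log base, and the range of the values is that of a log2 scale. Of 45101 probe sets, 34945 carry 1 gene symbol, 932 several, 9160 none and 64 are controls. For each of 18193 genes the probe set with the highest mean was kept.

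A linear model over 27 arrays (limma 3.58.1, R 4.3.3, lmFit and eBayes, 24 residual degrees of freedom) gave the change between 3bKI and 3aKO, with Benjamini-Hochberg adjustment at 0.05. The fits were tested on simulated data. The number of arrays limits the precision.

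The genes to describe were E2F and cell cycle genes, the 15 highest and 15 lowest called genes above the median signal, and up to 4 called genes of the smallest p per list, 172 in all, of which part is given here. Cyp4a12a, Elovl3, Cyp2b9, Sult3a1, Arntl, Nfil3, Tef, Pdk4, Retreg3, Taok1, Igfbp7, Exoc2, 2610307P16Rik and Ppargc1a were chosen after their values were seen. The comparison, members and lists were chosen with earlier results of these data known. Alternatives were covariates, blocks, normalizations, probe set rules and leaving out each of the 15 arrays. The fits by Xist level and the sex-index slopes were chosen after seeing the data.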

Additional observations from a re-analysis of the deposited data

Results flagged for a closer look

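The slope on the sex index differed between 3bKI and 3aKO for 134 genes by limma. Among the genes described, the difference (3bKI minus 3aKO) was -4.69 for Cyp4a12a, -4.61 for Dbp, -3.88 for Elovl3, -2.87 for Per3, -2.01 for Nr1d2 and -1.76 for Tef. It was 3.51 for Hao2, 2.69 for Cyp2b9, 1.86 for Cdkn1a, 1.78 for Chka, 0.95 for E2f2 and 0.71 for Cyp2c50. Only 2 3bKI arrays had high Xist, so these values rest on few arrays.

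Single arrays lay far from the rest of their group in 17 of 216 groups examined, where chance gives about 1 in 20. In 3aKO replicate 1 the value was above the others for Rbl1 (8.44), Cdc6 (7.10), Chaf1b (7.79), Rpa1 (11.08), E2f7 (5.72) and Pdk4 (6.16). In 3aKO replicate 8 it was above the others for Afp (6.59) and Arntl (6.92) and below them for Cyp4a14 (8.12) and Eng (8.86). Other 3aKO arrays stood apart for Ctse (8.19 in replicate 4), Hspd1 (13.28 in replicate 9), Mlxipl (10.21 in replicate 2) and Tef (11.67 in replicate 3). In 3bKI the arrays were replicate 1 for D630004K10Rik (8.22), replicate 5 for Pltp (10.80) and replicate 2 for Srebf2 (9.13).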

How the results depend on the processing

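The count of 6218 called genes fell to 116 with the integrity measure as a covariate, to 1232 with arrays blocked by hybridization level and to 1262 with that block and the sex index. It was 3572 among low-Xist arrays alone, which hold fewer samples, 12182 over every probe set and 5644 to 6321 when 1 array was left out. With the replicate number as a block it was 4021, of which 3768 were among the 6218. Deviations of same-numbered 3bKI and 3aKO arrays correlated at 0.339, -0.248, -0.012, -0.286 and -0.195. Since 3aKO replicates 1 to 5 all had high Xist and 3bKI replicates 2, 4 and 5 low Xist, these values cannot show whether the numbers pair the samples. The count of 134 slope differences ranged from 42 to 430 when 1 array was left out. With the mean of a gene's probe sets the change of E2f3 was 0.19 and that of Afp -0.45, and among high-Xist arrays alone that of Elovl3 was -0.93. The cause of these shifts was not tested. Of 90 called genes described, 88 kept their call without each single array, 85 with the replicate block, 35 with the hybridization block and 13 with the integrity covariate.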
